A study of Mus musculus with 18 samples.

Results

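The report concerns 9 genes for metabolic hormones and secreted regulators of the liver, taken by name from the 21153 genes that the array probes name: Enho, Fgf21, Angptl4, Igfbp1, Igfbp2, Ahsg, Fetub, Lect1 and Sepp1. They are read by 11 probes, 2 each for Enho and Igfbp2 and 1 for every other gene, and all 11 probes passed the filter on dim probes. RNA came from whole liver of male C57BL/6 mice given a low-fat diet (LFD, 10% of calories from fat) or a high-fat diet (HFD, 60%) from 6 weeks of age. After 10 weeks on the diet, some mice of each diet received methotrexate, an antifolate drug that blocks dihydrofolate reductase, by intraperitoneal injection at 50 mg/kg (MTX50) in 5 weekly rounds, and livers were taken 1 week after the fifth. Each mouse had 1 array, with 4 LFD, 4 HFD, 5 LFD MTX50 and 5 HFD MTX50 mice. No group of mice matched for food intake or weight is analysed here.

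Liver is an endocrine organ: besides albumin and clotting proteins, hepatocytes release proteins that act on the metabolism of other tissues, often called hepatokines. Adropin, the peptide encoded by Enho, is made in liver and brain, responds to diet and has been linked to glucose and lipid handling. The growth factor gene Fgf21 and insulin-like growth factor binding protein 1 (Igfbp1) are the textbook nutrient sensors of the set, since the former is induced by fasting and amino acid shortage and the latter is held down by insulin. Angptl4 inhibits lipoprotein lipase and is a target of the fatty acid receptor PPAR-alpha. Igfbp2 binds insulin-like growth factors and falls in obese, leptin-deficient animals. Ahsg and Fetub encode fetuin-A and fetuin-B, abundant plasma proteins of the cystatin family, and Sepp1 (now Selenop) encodes selenoprotein P, the plasma carrier of selenium. Lect1 is the old symbol of Cnmd, which encodes chondromodulin, a cartilage protein. The hepatokine with the similar old name is Lect2, which is a different gene and is given beside it.

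The regulatory sequence of 2 members is shown because each carries a motif known for the nutrient response of that gene, and because the RNA of both varied widely between treated mice. Both are the 250 bases before the start site in the RefSeq table (GRCm38.p6), 5′ to 3′ on the gene's own strand. Capitals in Igfbp1 mark CAAAACA, the core of the insulin response element that FOXO factors bind, and capitals in Fgf21 mark ATTGCATCA, an amino acid response element of the kind that ATF4 binds.
Igfbp1 (chr11:7197537-7197786, plus strand): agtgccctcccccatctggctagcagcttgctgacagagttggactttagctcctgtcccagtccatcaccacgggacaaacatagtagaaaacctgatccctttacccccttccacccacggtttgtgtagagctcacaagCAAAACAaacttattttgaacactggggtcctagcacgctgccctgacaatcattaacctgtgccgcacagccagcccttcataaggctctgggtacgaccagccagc
Fgf21 (chr7:45615491-45615740, minus strand): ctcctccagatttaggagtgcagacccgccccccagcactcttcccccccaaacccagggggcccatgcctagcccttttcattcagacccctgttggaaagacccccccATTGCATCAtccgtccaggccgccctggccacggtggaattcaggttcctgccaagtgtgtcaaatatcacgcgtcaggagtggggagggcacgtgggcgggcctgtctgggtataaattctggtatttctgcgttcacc
Searched on both strands, CAAAACA occurred in 5.56% of the 32851 promoter windows of the same length and ATTGCATCA in 0.167%, and the motifs do not overlap each other. The Igfbp1 core begins 108 bases before the start and the Fgf21 element 140. The table held 11 windows for 7 of the members, and neither motif occurred in the windows of the other members. The table has no entry for Enho or Angptl4.

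All levels below are log2 of the array's background-corrected intensity minus the 75th percentile of that array, so a difference of 1 between groups is 2-fold. They serve to compare mice for the same probe, not one gene with another. Group differences come from a limma fit of all 4 groups across 35735 probes with Benjamini-Hochberg adjustment, given as log2 difference ± SE, with an exact two-sided permutation test of the 2 groups beside it. A gene is called where the adjusted p was below 0.05, and the probe with the highest mean stands for it. The arrays had 83.8 to 90.6% of probes well above background and no saturated spot. They lay on 6 slides, of which only slide 5 held 2 groups (mice 3 and 4 of HFD with mice 1 and 2 of HFD MTX50), so slide and group cannot be told apart in comparisons with LFD mice. The 6 hepatocyte markers (Alb, Apoa1, Ttr, Tat, Cps1, Tf) were above background in every liver, but some differed between groups, as given with Ahsg below. In whole tissue, fewer cells of a type and less RNA per cell cannot be told apart. The study that made these arrays had already singled out Enho in them, so what follows is no independent evidence for its change.

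Enho was higher after methotrexate on both diets, and no difference between the untreated diets was called. On its brighter probe the LFD mice read 3.77, 3.56, 3.57 and 3.58, and the LFD MTX50 mice read 4.04, 4.05, 4.07, 4.00 and 4.00. Every treated LFD mouse was above every untreated one, and the treated mice lay between 4.00 and 4.07. The difference was 0.41 ± 0.12, or 1.33-fold (limma adjusted p = 0.021, and 0.0079 by the exact permutation test, the smallest that 5 against 4 mice allow). The HFD mice read 3.93, 3.58, 3.42 and 3.50, and the HFD MTX50 mice read 3.90, 4.28, 4.51, 4.05 and 4.31. These groups overlapped through 1 mouse each, HFD mouse 1 and HFD MTX50 mouse 1. The HFD MTX50 livers were 0.60 ± 0.12 higher, or 1.52-fold (limma adjusted p = 0.011, and 0.024 by the exact permutation test). Against LFD the HFD MTX50 livers were 0.59 ± 0.12 higher (limma adjusted p = 0.013, and 0.016 by the exact permutation test). HFD and LFD differed by −0.01 ± 0.13 (limma adjusted p = 0.960), with a 95% interval from −0.28 to 0.26. The 2 methotrexate changes differed by 0.19 ± 0.17, and this difference was not called (limma adjusted p = 0.416, interval −0.17 to 0.55). On slide 5 alone the HFD MTX50 mice were 0.63 above the HFD mice, and on the other slides 0.53. Both calls lay near the threshold: leaving out HFD mouse 3 or 4 gave adjusted p = 0.051 and 0.050 on the high-fat diet, and leaving out LFD mouse 2 or 3 gave 0.058 and 0.055 on the low-fat diet (limma). With slide as a random block the low-fat change was 0.41 and not called (adjusted p = 0.144).

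The second, dimmer Enho probe carries the same transcript accession and moved the same way by much more. It read 1.65, 0.67, 0.30 and 1.81 in LFD, and 3.07, 3.06, 3.18, 2.87 and 2.78 in LFD MTX50. It read 1.31, 0.56, −0.34 and 0.71 in HFD, and 2.91, 3.06, 3.38, 2.13 and 3.69 in HFD MTX50. No treated mouse of either diet overlapped the untreated mice. The HFD MTX50 livers were 2.47 ± 0.35 above HFD, or 5.54-fold (limma adjusted p = 0.0042, and 0.0079 by the exact permutation test). The LFD MTX50 livers were 1.88 ± 0.35 above LFD, or 3.69-fold (limma adjusted p = 0.0029, and 0.0079 by the exact permutation test). HFD and LFD differed by −0.55 ± 0.37 (limma adjusted p = 0.268). On slide 5 the methotrexate difference was 2.80, and on the other slides 2.13. With slide as a random block the low-fat change was 1.85 and not called (limma adjusted p = 0.064), and leaving out any 1 array kept both calls.

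The size of the Enho change thus depended on the probe. Within each mouse, the dimmer probe minus the brighter rose by 1.87 more in HFD MTX50 than in HFD and by 1.47 more in LFD MTX50 than in LFD (exact permutation p = 0.0079 for each), which describes unequal change on the 2 probes. Across the 18 livers the probes correlated at r = 0.89, and within groups at 0.65. Where in the transcript the probes lie was not examined here. The 2 Igfbp2 probes, by comparison, correlated at r = 0.98 within groups and their changes differed by at most 0.37. That smaller gap in HFD MTX50 vs HFD also had exact permutation p = 0.0079, and the gap of 0.23 in LFD MTX50 vs LFD had 0.040. The 2 genes thus differ in the size of the gap between probes, not in whether the test found one.

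**Figure D1:**
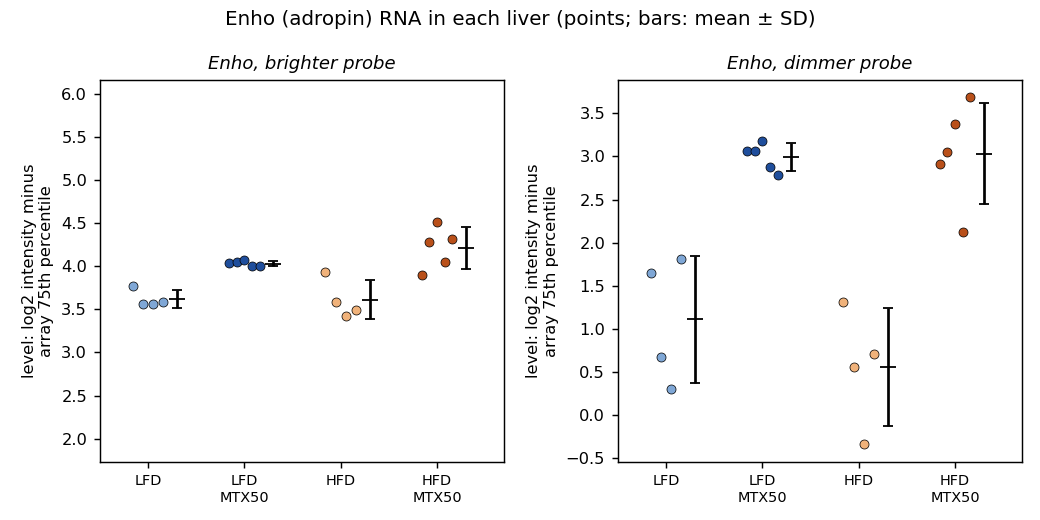
Level of Enho RNA in each liver by group, on the brighter probe (left) and the dimmer probe (right), as log2 intensity minus the array's 75th percentile, with points for mice and bars for mean ± SD. Both vertical axes span the same range, and the rise in the treated groups is larger on the dimmer probe (1.88 and 2.47) than on the brighter (0.41 and 0.60).

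The 3 fixed candidates for receptors or binding partners of adropin gave little that moved. Of Gpr19, Cntn6 and Notch1, only Notch1 was called in the diet comparison or in either methotrexate comparison, 1.00 ± 0.20 higher in LFD MTX50 than in LFD (limma adjusted p = 0.0042). Genes of the circadian clock and its nuclear receptors, a group known to act on Enho transcription, were called for diet and, on the low-fat diet, for methotrexate. In HFD vs LFD 1 of 11 was higher (Dbp) and 4 were lower, among them Arntl at −1.69 ± 0.49 and Cry1 at −1.65 ± 0.33 (limma adjusted p = 0.020 and 0.0046). In LFD MTX50 vs LFD 1 was higher (Nr1d2) and 3 were lower by limma. In HFD MTX50 vs HFD none of the 11 was called by limma. Among all genes, 18% were called higher and 10.4% lower in HFD vs LFD, and 17.6% and 10.5% in LFD MTX50 vs LFD. The time of day of harvest was not examined here.

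Across all 9 members, methotrexate raised 3 on the low-fat diet (Enho, Igfbp1 and Fetub) and 2 on the high-fat diet (Enho and Igfbp2), and in the 4-group fit none was called lower on either. Among all 19597 genes tested, 17.6% were called higher and 10.5% lower in LFD MTX50 vs LFD, and 4.83% higher and 6.13% lower in HFD MTX50 vs HFD. The median difference of the members was 0.23 beside 0.10 for all genes on the low-fat diet, and 0.42 beside −0.04 on the high-fat diet. Diet alone lowered 1 member, Igfbp2, and raised none, where 10.4% of all genes were called lower and 18% higher in HFD vs LFD. Against LFD, the only member called in HFD MTX50 was Enho, higher, beside 3.81% of all genes higher and 3.04% lower. One member changed differently on the 2 diets, again Igfbp2, whose methotrexate change was more positive on the high-fat diet, as it was for 8.66% of all genes, while 18.1% went the other way.

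**Figure D2:**
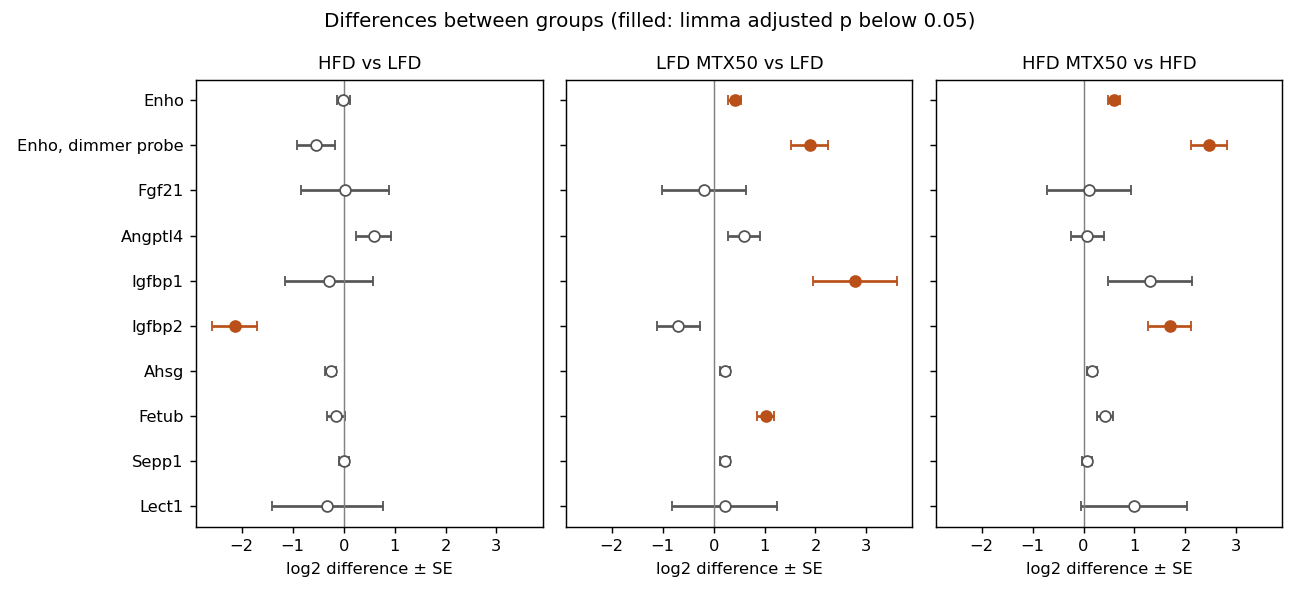
Log2 difference ± SE of each hormone RNA between groups in 3 comparisons (panels), from the 4-group limma fit, with filled points where the adjusted p was below 0.05. Enho was called in both methotrexate comparisons, Igfbp1 and Fetub in LFD MTX50 vs LFD, and Igfbp2 in HFD vs LFD and HFD MTX50 vs HFD.

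Igfbp2 was lower on the high-fat diet and higher again after methotrexate. The LFD mice read 4.47, 4.52, 4.33 and 4.70, and the HFD mice read 3.59, 2.43, 1.31 and 2.16. All 4 HFD mice were below all LFD mice, with HFD mouse 3 lowest. HFD differed from LFD by −2.14 ± 0.44, or 4.39-fold lower (limma adjusted p = 0.0054, and 0.029 by the exact permutation test, the smallest that 4 against 4 mice allow). With slide as a random block it was −2.27 and not called (limma adjusted p = 0.054). The HFD MTX50 mice read 4.56, 4.56, 4.79, 3.84 and 2.56, so 4 of 5 were above every HFD mouse. They were 1.69 ± 0.42 above HFD, or 3.23-fold (limma adjusted p = 0.023, and 0.032 by the exact permutation test), and differed from LFD by −0.44 ± 0.42, which was not called (adjusted p = 0.538). The call against HFD was lost without HFD mouse 3 (1.34, adjusted p = 0.098) or mouse 4 (1.62, adjusted p = 0.080). On slide 5 the difference was 2.83 and on the other slides 0.72. These are also different mice, so slide and mouse cannot be told apart in that gap.

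On the low-fat diet the LFD MTX50 mice read 3.58, 3.78, 4.28, 3.98 and 3.44, all below the LFD mice. That difference of −0.69 ± 0.42 was not called by limma (adjusted p = 0.218, exact permutation p = 0.016), though it was where those 2 groups were fitted alone (limma adjusted p = 0.016). The methotrexate change on the high-fat diet exceeded that on the low-fat diet by 2.38 ± 0.60 (limma adjusted p = 0.012). The second Igfbp2 probe gave −1.85 for HFD vs LFD, 1.32 for HFD MTX50 vs HFD and 1.78 for the difference between the methotrexate changes, all called by limma (adjusted p = 0.0086, 0.049 and 0.034). Of 5 adipocyte markers (Adipoq, Lep, Plin1, Retn, Cfd), Lep, Plin1 and Cfd were called higher in HFD vs LFD, and in HFD MTX50 vs HFD Cfd was called lower (−5.32) and Adipoq higher (0.88) by limma. In LFD MTX50 vs LFD 3 of the 5 were called higher and none lower. For the difference between the methotrexate changes 3 were called lower and none higher. Their summed level, in which Cfd had the largest change, was 2.06 to 2.74 in HFD, −1.47 to −0.93 in LFD, −0.67 to 0.67 in HFD MTX50 and −1.05 to −0.25 in LFD MTX50, with all 5 above background in every liver. Among all genes, 18% were called higher in HFD vs LFD, and 4.83% higher and 6.13% lower in HFD MTX50 vs HFD. The shares were 17.6% higher in LFD MTX50 vs LFD and 18.1% lower for the difference between the methotrexate changes. The part of these markers in the Igfbp2 result was not tested.

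Igfbp1 rose in the treated low-fat mice and split the treated high-fat mice. The LFD mice read 1.56, 0.33, 1.46 and 2.51, and the LFD MTX50 mice read 2.82, 3.80, 4.93, 3.93 and 5.71. No treated mouse overlapped the untreated ones, and the difference was 2.77 ± 0.82, or 6.84-fold (limma adjusted p = 0.021, and 0.016 by the exact permutation test). Without LFD mouse 2, the lowest, it was 2.40 and no longer called (adjusted p = 0.070), and with slide as a random block it was 2.97 and not called (limma adjusted p = 0.108). The HFD mice lay close together at 1.21, 1.51, 0.81 and 1.16, while the HFD MTX50 mice read 4.97, 4.09, 1.97, −0.26 and 1.58. The mean difference of 1.30 ± 0.82 was not called (limma adjusted p = 0.288). The 2 high HFD MTX50 mice, 1 and 2, were those on slide 5, where the difference from HFD was 3.54, while on the other slides it was −0.26. With slide as a fixed block, which leaves only slide 5, Igfbp1 was called (adjusted p = 0.017). Slide and mouse cannot be told apart here.

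Other genes of the insulin-like growth factor axis moved by less. Of 11, 3 were higher (Igf2, Igfals and Igfbp4) and 2 were lower (Igfbp7 and Ghr) in LFD MTX50 than in LFD. Igf2 rose by 0.84 ± 0.13 (limma adjusted p = 0.0012), and Igfbp7 and the growth hormone receptor Ghr fell by 0.61 and 0.53 (limma adjusted p = 0.020 and 0.036). In HFD MTX50 vs HFD only Igfbp6 was called, at −0.47 ± 0.14 (limma adjusted p = 0.038). HFD vs LFD called 2 higher, Igf2 at 0.72 ± 0.14 and Igfbp6 at 0.42 ± 0.14 (limma adjusted p = 0.0041 and 0.040). Insr, the insulin receptor, and Igf1 were called in none of these 3 comparisons. Of all genes, 17.6% were higher and 10.5% lower in LFD MTX50 vs LFD, and 6.13% were lower in HFD MTX50 vs HFD. In HFD vs LFD 18% of all genes were higher, near the share of this list.

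**Figure D3:**
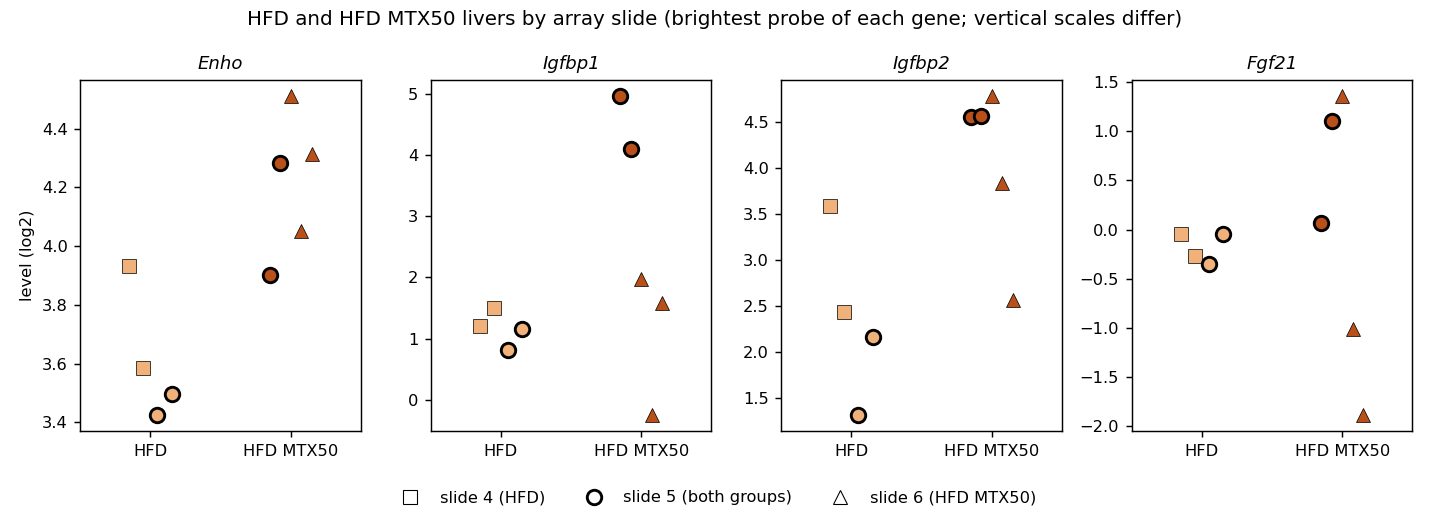
Levels of Enho, Igfbp1, Igfbp2 and Fgf21 in the HFD and HFD MTX50 livers, each on its brightest probe, with the marker showing the array slide and heavy circles for slide 5, the only one with both groups. Enho was higher in HFD MTX50 on slide 5 (0.63) and off it (0.53), while the Igfbp1 difference was 3.54 on slide 5 and −0.26 off it.

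Fgf21 was called between no groups, but its levels spread far more in treated mice. The LFD mice read 0.22, −0.33, −0.07 and −0.65 and the HFD mice read −0.05, −0.27, −0.35 and −0.05. Treated low-fat mice read −3.21, 0.31, 0.77, 1.93 and −1.75, and treated high-fat mice 0.07, 1.10, 1.36, −1.01 and −1.89. Treated mice lay on both sides of the untreated ones, with an SD of 2.06 in LFD MTX50 and 1.38 in HFD MTX50 beside 0.37 in LFD and 0.15 in HFD. The spread itself was not tested. It was not particular to Fgf21: Igfbp1 had an SD of 2.08 in HFD MTX50 beside 0.28 in HFD, though Igfbp2 did not widen there (0.91 beside 0.94). Over all kept probes, the mean r of a liver with its group was 0.979 to 0.984 in HFD MTX50 and 0.990 to 0.993 in HFD. It was 0.982 to 0.989 in LFD MTX50 and 0.986 to 0.989 in LFD. The differences in mean were −0.18 ± 0.82 for LFD MTX50 vs LFD and 0.11 ± 0.82 for HFD MTX50 vs HFD (limma adjusted p = 0.881 and 0.942), and their intervals, −1.92 to 1.56 and −1.63 to 1.84, hold changes of more than 2-fold either way. Among LFD MTX50 mice, mouse 1 was lowest for both Fgf21 and Igfbp1, whereas mouse 5, highest for Igfbp1 at 5.71, had Fgf21 at −1.75.

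Some genes of the pathways that act on Fgf21 or receive it were called, and their counts were not tested against the share over all genes. Of all genes, 18% were called higher and 10.4% lower in HFD vs LFD, near the counts of the stress response list below. The shares were 4.83% and 6.13% in HFD MTX50 vs HFD and 17.6% and 10.5% in LFD MTX50 vs LFD. Of 9 genes of the integrated stress response, which ATF4 drives, 2 were higher in HFD vs LFD, Chac1 at 1.08 ± 0.24 and Psat1 at 0.75 ± 0.16, and Atf4 itself was lower at −0.46 ± 0.13 (limma adjusted p = 0.0069, 0.0065 and 0.019). In the same list, Asns was higher in HFD MTX50 than in HFD (1.27 ± 0.28, limma adjusted p = 0.015) and Psat1 lower (−0.62 ± 0.16, adjusted p = 0.023). In LFD MTX50 vs LFD only Chac1 was called, at 1.40 ± 0.23 (limma adjusted p = 0.0014). Of 6 genes for FGF receptors, the co-receptor Klb and the protease Fap, none was called by limma for methotrexate on either diet. In HFD vs LFD 2 were lower, Fgfr3 at −0.76 ± 0.20 and Fgfr4 at −0.39 ± 0.12 (limma adjusted p = 0.014 and 0.028).

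Angptl4 passed the test in none of the comparisons. The LFD mice read 3.15, 2.76, 2.70 and 2.33, and the other groups averaged 3.34 ± 0.66 (SD, n = 5) in LFD MTX50, 3.32 ± 0.21 (SD, n = 4) in HFD and 3.40 ± 0.59 (SD, n = 5) in HFD MTX50. One treated mouse of each diet stood above the rest, LFD MTX50 mouse 3 at 4.39 and HFD MTX50 mouse 2 at 4.41. The difference was 0.59 ± 0.34 for HFD vs LFD (limma adjusted p = 0.187) and passed only where those 2 groups were fitted alone (adjusted p = 0.031). It was 0.60 ± 0.32 for LFD MTX50 vs LFD and 0.08 ± 0.32 for HFD MTX50 vs HFD (limma adjusted p = 0.155 and 0.890).

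Among 12 other targets of PPAR-alpha, 5 were called lower and none higher in LFD MTX50 vs LFD, with a median of −0.84 beside 0.10 for all genes. Acaa1b, a peroxisomal thiolase, fell by 2.28 (limma adjusted p = 0.0031) and Vnn1 by 1.91 (adjusted p = 0.0068). Pdk4 and Plin2 fell as well. In HFD MTX50 vs HFD 2 of the 12 were lower, among them Acaa1b at −1.68 ± 0.43 (limma adjusted p = 0.026). Of 8 genes for the lipases that Angptl4 acts on and their partners, Lipg and Gpihbp1 were higher in HFD than in LFD (0.78 ± 0.22 and 0.45 ± 0.12, limma adjusted p = 0.018 and 0.013), and Gpihbp1 was lower in HFD MTX50 than in HFD (−0.41 ± 0.11, adjusted p = 0.032). Lpl was not called in these comparisons. Over all genes, 18% were called higher in HFD vs LFD, 10.5% lower in LFD MTX50 vs LFD and 6.13% lower in HFD MTX50 vs HFD.

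Fetub rose in the treated low-fat mice, and its genomic neighbour on chromosome 16, Ahsg, did not pass there. For Fetub the LFD mice read 4.01, 3.92, 3.60 and 4.11, and the LFD MTX50 mice read 4.94, 4.90, 5.24, 4.53 and 5.07. The groups did not overlap, and the difference was 1.02 ± 0.16, or 2.03-fold (limma adjusted p = 0.0013, and 0.0079 by the exact permutation test). On the high-fat diet the untreated mice read 3.74, 3.93, 3.43 and 3.94 and the treated mice 3.91, 4.48, 4.15, 3.95 and 4.41, overlapping at the low end. That difference of 0.42 ± 0.16 was not called (limma adjusted p = 0.095, and 0.063 by the exact permutation test). The methotrexate change on the high-fat diet minus that on the low-fat diet was −0.61 ± 0.23, short of a call (limma adjusted p = 0.059), and it was called under quantile normalization (−0.81, adjusted p = 0.020) and in 3 of 18 fits that left out 1 array. Between the 2 treated groups, HFD MTX50 differed from LFD MTX50 by −0.76 ± 0.15 with no overlap (limma adjusted p = 0.0087, and 0.0079 by the exact permutation test). In that comparison 8.75% of all genes were called lower and 7.37% higher.

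Ahsg varied little, with group means of 7.88 in LFD, 7.62 in HFD, 8.11 in LFD MTX50 and 7.80 in HFD MTX50 and SDs of 0.12 to 0.15. All 4 HFD mice (7.46 to 7.72) were below all 4 LFD mice (7.73 to 8.02). The difference of −0.26 ± 0.10 was not called (limma adjusted p = 0.073, and 0.029 by the exact permutation test), though it was with scaling to the median of bright probes, with the rounded table of the series and with normexp where spots dimmer than their background were left out, a setting chosen after seeing the data (−0.32 to −0.35), but not with normexp on all spots. The methotrexate differences were 0.23 ± 0.10 on the low-fat diet and 0.17 ± 0.10 on the high-fat diet (limma adjusted p = 0.089 and 0.241). HFD MTX50 differed from LFD MTX50 by −0.31 ± 0.09 (limma adjusted p = 0.033). In that comparison 3 of the 6 hepatocyte markers were also called lower and none higher. Their median difference was −0.44, beside −0.06 for all genes. The part of hepatocyte RNA as a whole in the Ahsg and Fetub differences was not tested.

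The kininogens, cystatin-family genes of the same gene cluster, were called higher in the comparison that called Fetub. Of 5 family genes, Kng1, Kng2 and Cst6 were called higher in LFD MTX50 vs LFD, Kng1 at 0.62 ± 0.10 and Kng2 at 0.61 ± 0.09 (limma adjusted p = 0.0014 and 0.0010). Kng1 and Kng2 were also higher in HFD MTX50 vs HFD (0.45 ± 0.10 and 0.61 ± 0.09, limma adjusted p = 0.016 and 0.0057) and lower in HFD vs LFD (−0.36 ± 0.11 and −0.42 ± 0.10, adjusted p = 0.022 and 0.0080). Over all genes, 17.6% were called higher in LFD MTX50 vs LFD, 4.83% higher in HFD MTX50 vs HFD and 10.4% lower in HFD vs LFD. Near-identical copies of the kininogens may share signal on these probes.

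Sepp1 had group means of 7.34 in LFD, 7.34 in HFD, 7.56 in LFD MTX50 and 7.40 in HFD MTX50. The LFD MTX50 mice (7.47 to 7.63) were all above the LFD mice (7.13 to 7.41), by 0.22 ± 0.09, which was not called by limma (adjusted p = 0.082, exact permutation p = 0.0079). HFD MTX50 vs HFD was 0.06 ± 0.09 (interval −0.14 to 0.26) and HFD vs LFD −0.00 ± 0.10 (interval −0.21 to 0.21). Of 16 tested genes for other selenoproteins, their synthesis and the receptors of selenoprotein P, 5 were called higher in LFD MTX50 vs LFD. Among these were Secisbp2, which takes part in reading a stop codon as selenocysteine (0.51 ± 0.10, limma adjusted p = 0.0039), and the plasma peroxidase Gpx3 (0.95 ± 0.32, adjusted p = 0.035). Gpx4 alone was called in HFD MTX50 vs HFD, at −0.50 ± 0.16 (limma adjusted p = 0.047). Of all genes, 17.6% were called higher in LFD MTX50 vs LFD. In HFD MTX50 vs HFD 6.13% were called lower, near the share of this list.

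Lect1 was near background. Its probe was above background on 5 of 18 arrays, 1 or 2 in each group, at intensities of 3.18 to 193 over all arrays, and no difference was called by limma (adjusted p from 0.533 to 0.889 in the diet comparison and the 2 methotrexate comparisons). Of the 4 cartilage markers (Acan, Col2a1, Matn1, Sox9), 3 were above background in every liver. Lect2, the hepatokine, averaged 5.24 ± 0.14 (SD, n = 4) in LFD and 4.79 ± 0.14 (SD, n = 5) in LFD MTX50 and was not called in those comparisons either.

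**Figure D4:**
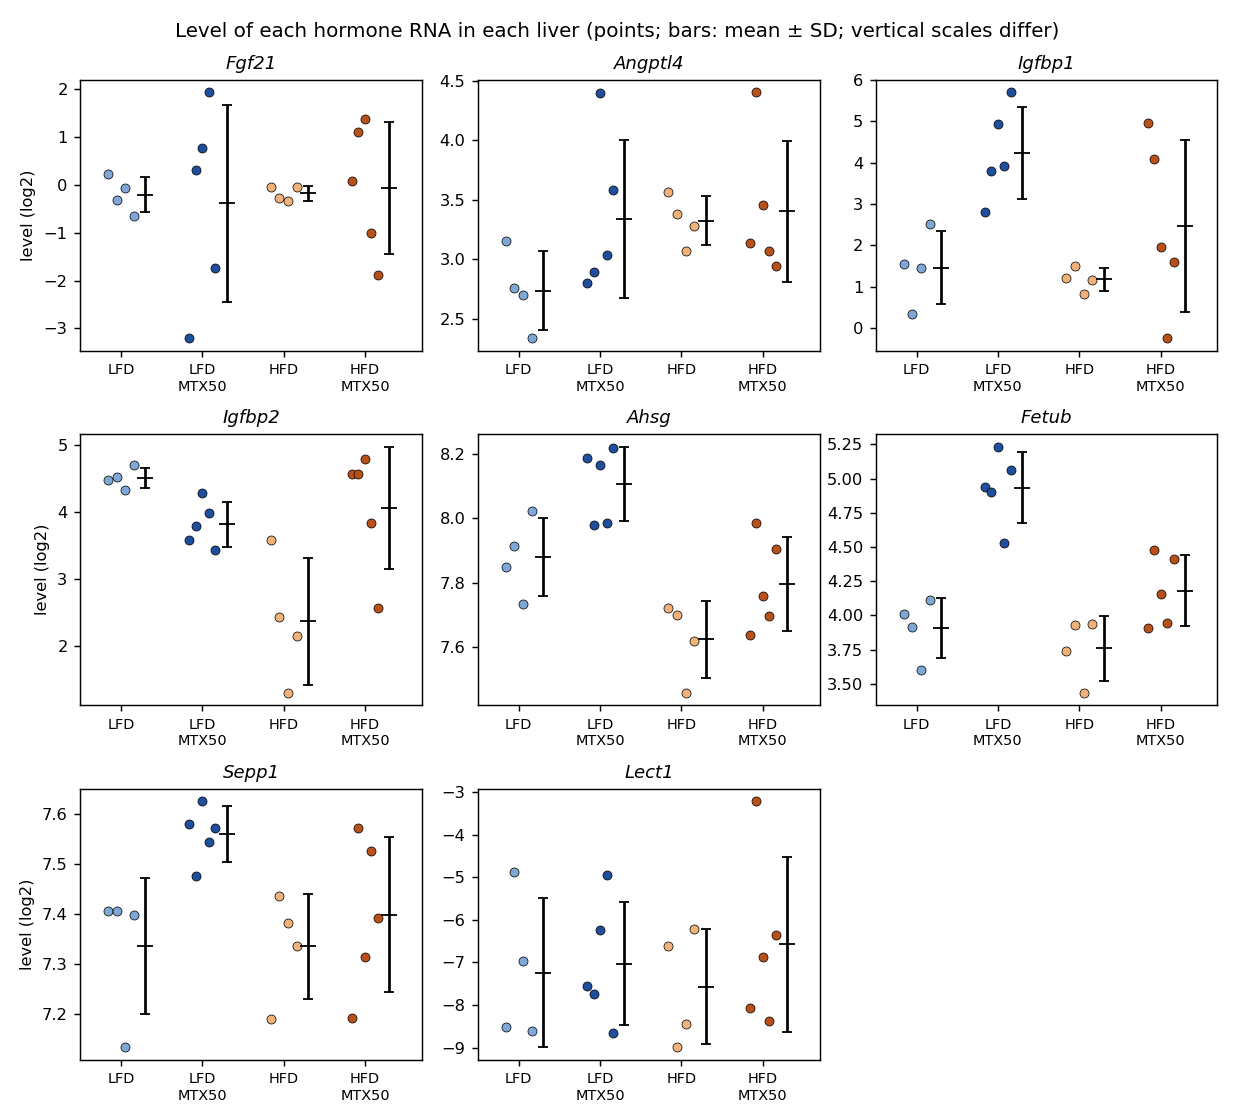
Level of Fgf21, Angptl4, Igfbp1, Igfbp2, Ahsg, Fetub, Sepp1 and Lect1 in each of 18 livers, as log2 intensity minus the array's 75th percentile on each gene's brightest probe, with points for mice and bars for mean ± SD. Fgf21 shows wide spread in the treated groups (SD 2.06 and 1.38), and the Fetub points of LFD MTX50 lie above all others.

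In order of mean level, Enho ran HFD, LFD, LFD MTX50, HFD MTX50, and the step between LFD and LFD MTX50 was called while those at both ends were not (limma adjusted p = 0.960 and 0.275). Igfbp2 ran HFD, LFD MTX50, HFD MTX50, LFD, with a called step only between HFD and LFD MTX50 (−1.44, limma adjusted p = 0.021). Igfbp1 ran HFD, LFD, HFD MTX50, LFD MTX50 with no neighbouring step called, although HFD differed from LFD MTX50 by −3.06 (limma adjusted p = 0.014). Fetub ran HFD, LFD, HFD MTX50, LFD MTX50, and only the last step was called. Ahsg ran HFD, HFD MTX50, LFD, LFD MTX50, with no neighbouring step called. HFD had the lowest mean for these 5 genes, which are also those called in the next comparison, so the 2 statements are not separate. Of the remaining members, HFD was lowest for Sepp1 and Lect1, LFD for Angptl4 (2.74) and LFD MTX50 for Fgf21 (−0.39). In HFD vs LFD MTX50, which differ in both diet and drug, 5 of the 9 members were called lower and none higher, beside 12.4% of all genes lower and 9.96% higher. Of the 6 hepatocyte markers, 2 were called lower there and none higher, with a median of −0.39. Fgf21, Angptl4, Sepp1 and Lect1 had no pair of groups called.

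Of 19 other factors secreted by liver, 4 were higher and 2 lower in LFD MTX50 vs LFD, near the share of all genes there (17.6% and 10.5%). In HFD MTX50 vs HFD 2 were higher and none lower, beside 4.83% and 6.13% of all genes. Fgl1, a fibrinogen-related hepatokine of regeneration and inflammation, rose by 2.53 ± 0.32 on the low-fat diet and 2.21 ± 0.32 on the high-fat diet (limma adjusted p = 0.00041 and 0.0046). Smoc1 rose by 0.74 ± 0.12 and 0.40 ± 0.12 (limma adjusted p = 0.0013 and 0.040). Agt and Thpo, for angiotensinogen and thrombopoietin, were called higher and Inhbe and Dpp4 lower in LFD MTX50 vs LFD but not in HFD MTX50 vs HFD, with the difference between diets called for Agt alone (−0.81 ± 0.29, adjusted p = 0.047). In HFD vs LFD the follistatin gene Fst fell by 1.96 (limma adjusted p = 0.027), and Angptl8 and Dpp4 fell too.

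Of 13 acute phase genes, 6 were called higher in LFD MTX50 vs LFD and 5 in HFD MTX50 vs HFD, with none lower. Of all genes, 17.6% and 4.83% were called higher in these comparisons, and 10.5% and 6.13% lower. The metallothioneins were furthest, Mt1 at 4.84 ± 0.95 and 4.46 ± 0.95 and Mt2 at 5.15 ± 1.08 and 4.95 ± 1.08 (limma adjusted p from 0.0036 to 0.014). Erythroid markers ranged from 3.08 to 4.84 in summed level over the untreated mice, from −1.46 to −0.12 in LFD MTX50 and from −0.61 to 6.74 in HFD MTX50 (median 0.90). The part of either list in the hormone results was not tested.

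Within groups, no other hormone RNA passed the test of a relation to Enho at the level of the single mouse in the 4-group fit. Each of 18 livers was expressed as its deviation from its group mean, and the 8 other members were compared with Enho, read on the brighter probe. Pearson's r was 0.45 for Ahsg (permutation p = 0.117, Spearman 0.48, p = 0.079), 0.39 for Fetub (p = 0.164, Spearman 0.42, p = 0.116) and 0.38 for Igfbp2 (permutation p = 0.306, Spearman 0.34, p = 0.270). For Angptl4 r was 0.34 (permutation p = 0.188, Spearman 0.36, p = 0.121), for Lect1 0.24 (p = 0.431, Spearman 0.27, p = 0.340) and for Fgf21 0.18 (permutation p = 0.454, Spearman 0.26, p = 0.289). Sepp1 and Igfbp1 were at −0.04 (permutation p = 0.899, Spearman −0.01, p = 0.975) and −0.12 (permutation p = 0.754, Spearman 0.03, p = 0.917). In a limma fit of Enho as a covariate beside the groups, adjusted over all genes, the 8 had adjusted p from 0.578 to 0.971. None of the 19596 genes passed (0%), although 2306 (11.8%) had an unadjusted p below 0.05, none of them a member. Under normexp background correction on all spots, which put the background mean of single arrays as low as −1823 intensity units, 6 members passed, and none passed where spots dimmer than their background were left out.

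The pattern rested partly on single mice. Without the 2 mice farthest from their group in Enho, HFD mouse 1 and HFD MTX50 mouse 3, r was 0.60 for Fetub, 0.56 for Ahsg, 0.39 for Sepp1 and 0.37 for Angptl4, and it was −0.08 for Igfbp2. The group means still included those 2 mice, so these r values are not purely within groups. Read on the dimmer Enho probe instead, r was 0.62 for Fetub and 0.58 for Ahsg, and again no member passed in the limma fit (smallest adjusted p = 0.996). The LFD MTX50 mice contribute little, since their Enho levels lie between 4.00 and 4.07. Taken within the mice of 1 group on 1 slide (7 such sets, with 17 mice not alone in theirs, chosen after seeing the data), r ran from −0.02 for Sepp1 to 0.53 for Angptl4 and was 0.41 for Fetub and 0.43 for Ahsg. No member passed in that limma fit (smallest adjusted p = 0.558) or in the fit with slide as a random block.

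**Figure D5:**
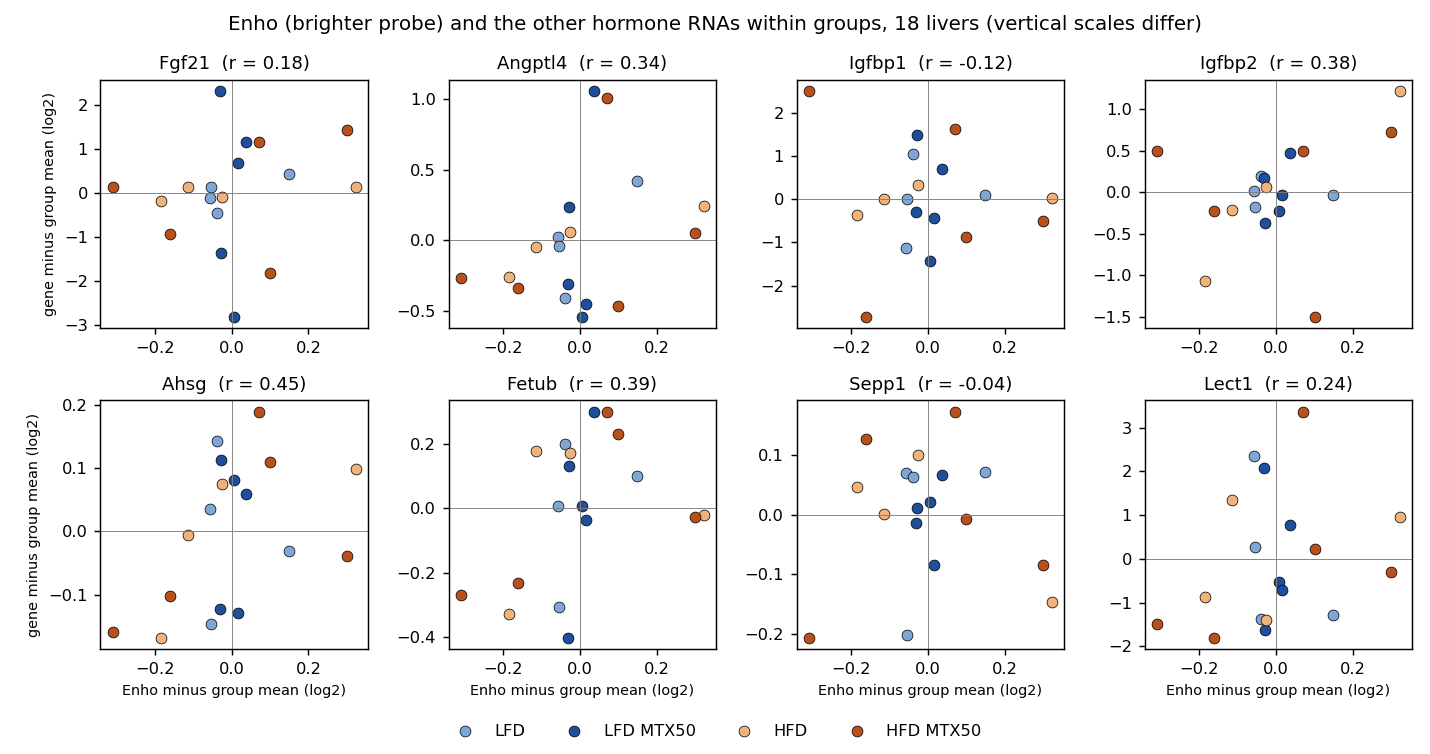
Deviation of each of 8 hormone RNAs from its group mean against that of Enho (brighter probe) in 18 livers, both in log2 units, coloured by group, with Pearson's r in each title. The clouds are loose, with r from −0.12 (Igfbp1) to 0.45 (Ahsg).

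Over all 18 livers, without removing group means, the genes whose level was most like Enho among 17525 genes above background on every array were Myo18a (r = 0.85), Hacd4 (0.84), Tmem176b (0.83), Epb41 (0.81) and Gipr (0.80). Those most opposed were Smyd2 (−0.92), Pcca (−0.92), Nhej1 (−0.91), Ednrb (−0.90) and Gm6498 (−0.90). Within groups the correlation stayed at 0.81 for Myo18a, −0.82 for Smyd2 and −0.88 for Ednrb and fell to 0.24 to 0.38 for Hacd4, Tmem176b, Epb41 and Gipr. Among the members, Fetub stood highest, at rank 692 of 17525 with r = 0.55, then Angptl4 (0.42, rank 1796) and Ahsg (0.40, rank 2081), while Fgf21 was at 0.10 (rank 6974). All these points share arrays and the group differences given above, so the values are a description only.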

How the data were processed

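RNA of 18 mouse livers was hybridised to one-colour Agilent arrays, 1 array per mouse. Per the file headers, Agilent Feature Extraction 10.7.3.1 made the intensity values the authors deposited, with background subtracted and spots flagged. The labels and the study's methods differ in the amplification kit named. Outlier spots were removed here, log2 taken of each spot, spots of a probe averaged and the log2 of each array's 75th percentile (1203 to 2263 intensity units) subtracted. Of 39429 probes, 35735 were above background on at least 4 arrays and were kept, and 28025 (71.1%) had a RefSeq gene name. Groups came from the labels. limma fitted the 4 groups to all kept probes, with Benjamini-Hochberg adjustment and calls below 0.05. Members were all named on their brightest probe, for other lists at most 5 called genes by size. Some called genes of these lists are counted but not reported here by name. Members and lists were chosen with earlier results of these data known. The files hold median, not mean, spot signals, so normexp used medians. The deposited table of the series holds the background-subtracted intensity, rounded (largest gap 0.498%), and served as an alternative. Code was tested on simulated data. Alternatives covered background correction, scaling, filters, a t-test, slide, replicate number, probes and each array left out. The t-test, called the methods' t-test below, is named in the study's methods for measurements other than the arrays. Those methods name no test for the arrays. Mice were housed singly before treatment, per the study's methods, litters are not given in the sources used here, and the number of mice limits precision.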

Additional observations from a re-analysis of the deposited data

Results flagged for a closer look

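The methotrexate change of Igfbp2 was 2.38 log2 units higher on the high-fat diet than on the low-fat diet (limma, difference between the 2 changes). In LFD, Enho of mouse 1 (3.77) stood apart from the other 3 mice, of which the nearest was at 3.58. Sepp1 of LFD mouse 3 (7.13) likewise lay below the other 3, the nearest at 7.40. These are 2 of 40 groups of 4 or 5 mice examined, and chance alone gives about 1 in 20.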

How the results depend on the processing

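The number of called members moved by over 1.5 times under several settings. In HFD vs LFD it went from 1 to 0 under normexp and with slide as a random block. It went to 2 with scaling to the median of bright probes, with the rounded table, where spots dimmer than their background were left out of normexp, and where the 2 groups were fitted alone. In HFD MTX50 vs HFD it went from 2 to 0 under normexp, in a fit of the 2 groups alone and by the methods' t-test with Benjamini-Hochberg adjustment or with an unadjusted p of up to 0.015 and 2-fold, and to 1 with a 2-fold limit added. In LFD MTX50 vs LFD it went from 3 to 0 under normexp, to 5 by the methods' t-test with Benjamini-Hochberg adjustment (adding Igfbp2, lower, adjusted p = 0.031, and Sepp1, higher, 0.043) and to 1 with slide as a random block. In HFD MTX50 vs LFD it went from 1 to 0 with the groups alone, by both forms of the t-test, with the 2-fold limit and with slide as a random block. For the difference between the treatment effects it went from 1 to 0 under normexp and to 2 under quantile normalization. With 1 array left out, the counts ran from 1 to 1 in HFD vs LFD, 0 to 2 in HFD MTX50 vs HFD (0 without HFD mouse 3 or 4), 1 to 3 in LFD MTX50 vs LFD (1 without LFD mouse 2), 1 to 1 in HFD MTX50 vs LFD and 1 to 2 for the difference between the effects.

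Enho kept its direction in both methotrexate comparisons and in HFD MTX50 vs LFD under all settings run. Its call was lost under normexp in HFD MTX50 vs HFD (0.44, adjusted p = 0.381), LFD MTX50 vs LFD (0.040, adjusted p = 0.909) and HFD MTX50 vs LFD (0.12, adjusted p = 0.708). That setting put the background mean of single arrays as low as −1823 intensity units. With spots whose local background exceeded their signal by over 50 units left out (at most 15 spots on an array, chosen after seeing the data), that mean stayed between −16.6 and 17.7, and Enho was called in all 3 (0.58, 0.30 and 0.52). Enho also lost its call in a fit of the 2 groups alone (0.60, adjusted p = 0.086 for HFD MTX50 vs HFD, and 0.59, adjusted p = 0.050 for HFD MTX50 vs LFD) and by the adjusted t-test of the methods (0.60, adjusted p = 0.113, and 0.59, adjusted p = 0.070). It lost it in LFD MTX50 vs LFD with scaling to the median of bright probes (0.31, adjusted p = 0.093) and with slide as a random block (0.41, adjusted p = 0.144), which also ended the call in HFD MTX50 vs LFD (0.61, adjusted p = 0.175). Its brighter probe stayed under 2-fold in all 3 (0.60, 0.41 and 0.59). With 1 array left out the differences ran from 0.53 to 0.71, 0.39 to 0.46 and 0.52 to 0.67 in these 3 comparisons. For HFD vs LFD, which was never called, the sign turned under quantile normalization (0.18) and with slide as a random block (0.0066), and the value ran from −0.12 to 0.052 with 1 array left out, positive without LFD mouse 1 (0.040), HFD mouse 3 (0.052) or HFD mouse 4 (0.028). The dimmer probe kept its methotrexate calls in 26 of 27 settings on the high-fat diet and 25 of 27 on the low-fat diet. Most of these settings left out 1 array. The fits of 2 groups alone, the t-tests, the 2-fold limit and slide as a fixed block were not among them. The 2 probes are therefore not compared over the same settings. With slide as a random block the dimmer probe also lost its call in HFD MTX50 vs LFD (1.99, limma adjusted p = 0.153).

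Under normexp as planned 6 members were related to Enho within groups, where spots dimmer than their background were left out 0, and 0 under each of the other settings. The scaling set where no change lies: the median probe differed by 0.16 in LFD MTX50 vs LFD here and by 0.03 under quantile normalization. Same-numbered mice of different groups did not deviate together (median r = −0.02 over 25 pairs), and a replicate block changed none of the members' counts (1, 2, 3, 1 and 1), with Enho at 0.59 and 0.40 after methotrexate. Igfbp2, Igfbp1 and Fetub lost calls under normexp, and slide as a random block ended those of Igfbp2 in HFD vs LFD and Igfbp1. The cause of these differences was not tested.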
